A study of Mus musculus with 6 samples.

Results

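The genes described are those of class I antigen presentation (H2-K1, H2-D1, B2m, Tap1, Tap2, Tapbp, Erap1 and the class I transactivator Nlrc5), with Cd74, the invariant chain gene of class II, and Ciita, the class II transactivator. They are 10 of the 27067 genes in the count table. They were chosen by symbol, through their Ensembl identifiers in GENCODE M21, and all 10 were found. The cells were B16F10, a pigmented metastatic melanoma line of the C57BL/6 mouse. The control group had 3 libraries, titled control and named blank in the table, and the treated group had 3 libraries from cells given Polianthes tuberosa L. (tuberose) extract. Polyadenylated RNA was sequenced. The sources used here do not give the dose, the duration, the solvent or whether replicates were separate cultures, so the p-values measure only the spread between these libraries, which may be technical.

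Class I molecules carry peptides of the cell's own proteins to its surface, where CD8 T cells read them. The proteasome cuts the peptides, the TAP1-TAP2 transporter pumps them into the endoplasmic reticulum, ERAP1 trims them there, and tapasin (Tapbp) holds the empty heavy chain and beta-2 microglobulin (B2m) next to the transporter until a peptide binds. B16 melanoma cells are known for low surface class I that interferon gamma can raise. CD74 fills the groove of class II molecules on their way to lysosomes and, at the cell surface, binds the cytokine MIF.

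In treated cells 8 of the 9 members that could be tested rose and none fell. Of all 15150 tested genes 25.1% rose and 53% changed in either direction. The members and the gene lists below were chosen with earlier results of these data known. The shares set beside them therefore describe the genes and are not a test. The rise was about 4-fold for Cd74, 3.16-fold for Tap2, 2.47-fold for Nlrc5 and 2.11-fold for H2-K1, and between 1.23-fold and 1.41-fold for Tapbp, H2-D1, B2m and Tap1. Erap1 did not pass, and Ciita was too low to test. A rise of at least 2-fold was seen in 4 of 9 tested members, against 4.17% of all tested genes. Of these, Cd74, Tap2 and Nlrc5 had a mean under 5 CPM, where 11.3% of tested genes rose that much. H2-K1 had a higher mean, where 0.967% did. Nlrc5 entered the test through its treated libraries, which favours a rise. In each of the 8 that rose, all 3 treated libraries lay above all 3 control libraries, as they did for 28.4% of tested genes (58.7% did not overlap in either direction). Of the 8, 4 had a mean under 5 CPM, where 22.5% of tested genes rose, and 4 had a higher mean, where 26.3% rose.

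The upstream sequences of the 3 most abundant members are shown because these genes rose together, and because H2-K1 and H2-D1 are close relatives whose changes differed in size in these data. They are the 250 bases before the start in RefSeq's table for GRCm38.p6, which held a promoter for 6 of the 10 members. That table listed 2 starts for H2-K1, and the first listed was used. H2-K1 is at chr17:34000348-34000597 on the minus strand, H2-D1 at chr17:35262844-35263093 on the plus strand and B2m at chr2:122147437-122147686 on the plus strand. Capitals mark matches on either strand to GGGNNNNCCC (kappa B), AANNGAAA (the core bound by interferon regulatory factors), TGACG (part of a CRE) and CCAAT.
H2-K1: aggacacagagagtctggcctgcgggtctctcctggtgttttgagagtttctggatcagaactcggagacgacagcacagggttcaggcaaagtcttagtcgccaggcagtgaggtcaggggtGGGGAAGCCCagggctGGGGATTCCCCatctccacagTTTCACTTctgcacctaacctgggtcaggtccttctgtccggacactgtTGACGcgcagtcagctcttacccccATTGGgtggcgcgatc
H2-D1: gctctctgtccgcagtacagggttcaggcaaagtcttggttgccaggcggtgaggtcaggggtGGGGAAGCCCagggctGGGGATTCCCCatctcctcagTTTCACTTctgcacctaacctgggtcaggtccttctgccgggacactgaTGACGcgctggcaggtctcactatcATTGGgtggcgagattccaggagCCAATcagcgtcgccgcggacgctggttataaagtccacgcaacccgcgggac
B2m: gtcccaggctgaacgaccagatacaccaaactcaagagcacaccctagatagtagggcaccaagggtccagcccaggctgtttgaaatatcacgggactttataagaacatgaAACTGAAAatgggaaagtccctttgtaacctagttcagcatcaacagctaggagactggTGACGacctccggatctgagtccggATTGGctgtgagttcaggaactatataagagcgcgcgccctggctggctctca

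The H2-K1 and H2-D1 sequences were 87.4% identical over 190 aligned bases. Both held a run of matches in the same order, namely 3 kappa B matches, the last pair of which overlap, the interferon factor core, TGACG and the CCAAT box read as ATTGG. H2-D1 held a further CCAAT at -53 to -49 relative to its start. The run lay closer to the start used for H2-K1, with ATTGG at -16 to -12 against -76 to -72 in H2-D1. Of the 6 member promoters, 2 held the kappa B letters, 3 the interferon factor core, 4 TGACG and 5 CCAAT. Over 32851 promoter windows of the same length the shares were 10.3%, 21.3%, 17.8% and 33.8%. In H2-K1, H2-D1 and B2m the letters TGACG and ATTGG stood exactly 20 bases apart, a spacing picked after these sequences were seen. The windows of Tap1, Tapbp and Erap1 did not hold this pair. That pair on either strand was found in 30 of all 32851 windows (0.0913%) and in 1 of 12 other class I genes with a window, H2-M3. In the textbook account of class I and class II promoters, the X box, whose second part resembles a CRE, and the Y box, a reversed CCAAT, lie at a fixed distance and are bound by RFX, CREB-family and NF-Y proteins, to which NLRC5 or CIITA attaches. A match to letters is a description and does not show that a factor was bound.

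Among the heavy chains, H2-K1 (ENSMUSG00000061232, chromosome 17) measured 30.7, 33.2 and 38.5 CPM in control replicates 1, 2 and 3, and 71.0, 75.6 and 68.9 CPM in treated replicates 1, 2 and 3. CPM are counts scaled to a common library total with TMM factors. The groups were far apart, with every treated library at least 30 CPM above every control. The means were 34.1 ± 4.02 and 71.8 ± 3.39 CPM (SD, n = 3 per group), and the log2 fold change came to 1.08 ± 0.06 (SE, edgeR quasi-likelihood test, Benjamini-Hochberg (BH) adjusted p = 3.20e-13). Of the 10440 tested genes with a mean of 5 CPM or more, 0.967% rose by at least 2-fold, and H2-K1 was the only member among them.

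H2-D1 (ENSMUSG00000073411, chromosome 17), the other classical heavy chain, measured 82.6, 81.8 and 84.5 CPM in control and 104.7, 108.6 and 106.2 CPM in the treated libraries. The libraries of each group lay within a few CPM of each other and the groups did not overlap. This was a log2 fold change of 0.36 ± 0.03 (SE, edgeR BH-adjusted p = 7.62e-10). Its 95% interval of 0.30 to 0.42 lay below that of H2-K1, 0.96 to 1.20.

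Because H2-K1 rose more, the balance of the heavy chains moved. There were 2.69, 2.47 and 2.19 H2-D1 counts per H2-K1 count in control replicates 1, 2 and 3, and 1.47, 1.44 and 1.54 in the treated ones. The ratio was lower in every treated library than in any control, with an exact two-sided permutation p = 0.1, the smallest that 3 against 3 allows. H2-K1 made up 29.1% ± 2.13 of the counts of both genes in control and 40.3% ± 0.853 in treated libraries (SD, n = 3 per group).

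Class I genes have near-identical copies, and the sources used here do not say how reads matching several places were counted, which makes single-gene counts uncertain. Of all stretches of 100 bases in the transcripts of H2-K1, 99.0% occurred in no transcript of another gene in GENCODE M21, and for H2-D1 96.4% did. Counts were summed over H2-K1, H2-D1, H2-Q1, H2-Q4 and the pseudogene H2-K2, the 5 copies of these types with counts. The sum was 130.3 ± 5.18 CPM in control and 198.2 ± 6.48 CPM in the treated libraries. Its log2 fold change was 0.61 ± 0.03 (SE, edgeR BH-adjusted p = 1.63e-13). The sum is made up mostly of H2-K1 and H2-D1, so its rise, by an amount between theirs, followed from the single genes. It does not show how shared reads were counted.

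B2m (ENSMUSG00000060802, chromosome 2), the light chain shared by all class I molecules, measured 152.7, 158.4 and 157.3 CPM in control and 200.6, 202.9 and 216.7 CPM in the treated libraries. The groups were separate, with treated replicate 3 the highest. The means were 156.1 ± 2.995 and 206.7 ± 8.70 CPM (SD, n = 3 per group), and the log2 fold change was 0.41 ± 0.03 (SE, edgeR BH-adjusted p = 8.11e-11). Per kilobase of exon, B2m was 4.15 times the sum of H2-K1 and H2-D1 in control and 3.66 times in treated libraries. These ratios depend on the length used. With the longest transcript, H2-K1 and H2-D1 were higher (18.2 and 39.5 in control) and B2m the same, which makes both ratios lower.

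**Figure D1:**
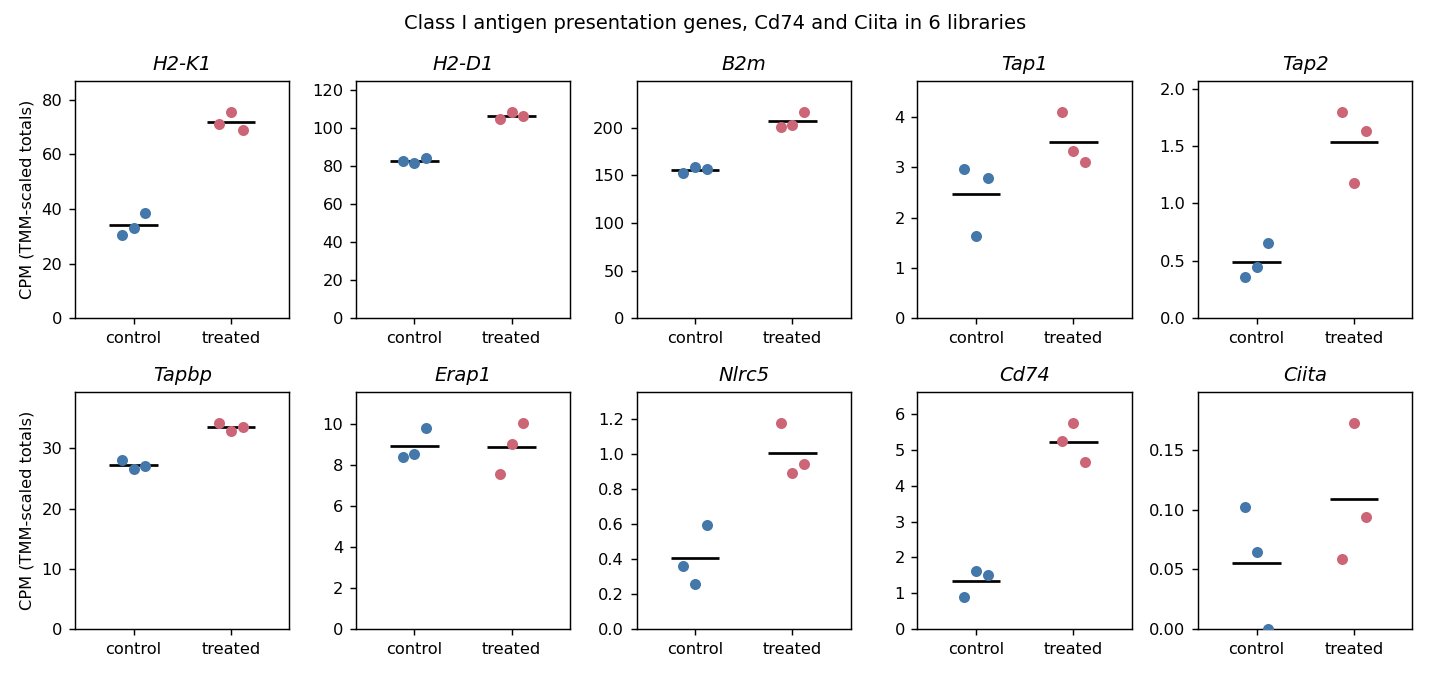
Each panel shows 1 gene, with CPM (TMM-scaled totals, linear axis from 0) for the 3 control and 3 treated libraries as points and the group mean as a line. In all panels except those of Erap1 and Ciita, the 3 treated libraries lie above the 3 controls.

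The peptide transporter genes were low and their changes differed in certainty. Tap2 (ENSMUSG00000024339, chromosome 17) had 14, 14 and 22 counts in control and 61, 41 and 52 in treated libraries, or 0.487 ± 0.151 and 1.54 ± 0.318 CPM (SD, n = 3 per group). The lowest treated library was well above the highest control. The log2 difference was 1.66 ± 0.31 (SE, edgeR BH-adjusted p = 9.46e-05), with a wide 95% interval of 1.01 to 2.30. Of the exon bases of Tap2, 533 lie opposite Gm15821 and 165 opposite Gm20496. The part of these genes in the Tap2 counts was not tested.

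Tap1 (ENSMUSG00000037321, chromosome 17) had 116, 51 and 94 counts in control replicates 1, 2 and 3, and 139, 115 and 99 in treated replicates 1, 2 and 3. On the CPM scale the groups did not overlap, but the highest control, 2.97 CPM, nearly reached the lowest treated library, 3.10 CPM. The log2 fold change was 0.49 ± 0.19 (SE, edgeR BH-adjusted p = 0.0340). The call was lost without control replicate 2, the lowest control (log2 fold change 0.28, edgeR BH-adjusted p = 0.203), and without treated replicate 1, the highest treated library (log2 fold change 0.37, edgeR BH-adjusted p = 0.184). It was also lost with level-dependent (cyclic loess) offsets (log2 fold change 0.31, edgeR BH-adjusted p = 0.191) and in DESeq2 (adjusted p = 0.0501).

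Tapbp (ENSMUSG00000024308, chromosome 17), which encodes tapasin, measured 28.0, 26.5 and 27.0 CPM in control and 34.3, 33.0 and 33.6 CPM in the treated libraries. The groups were tight and separate. Tapbp rose by 0.30 ± 0.05 on the log2 scale (SE, edgeR BH-adjusted p = 4.08e-05). It shares 149 exon bases on the same strand with Zbtb22, a zinc finger gene whose log2 fold change of -0.10 ± 0.06 did not pass (edgeR BH-adjusted p = 0.188). On the opposite strand, 904 exon bases of Tapbp overlap Gm19412. The part of either gene in the Tapbp counts was not tested.

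Erap1 (ENSMUSG00000021583, chromosome 13), the trimming peptidase, measured 8.39, 8.53 and 9.80 CPM in control and 7.55, 9.0 and 10.1 CPM in the treated libraries. The groups overlapped fully, with a treated library both lowest and highest. The log2 fold change was -0.01 ± 0.11 with a 95% interval of -0.23 to 0.22 (edgeR BH-adjusted p = 0.963), and its sign depended on the scaling. The sources used here do not give the strand setting of the counting. In GENCODE M21, 834 exon bases of Erap1 lie opposite Cast, the calpastatin gene. Cast was more abundant, at 49.2 ± 2.02 CPM in control and 62.7 ± 3.62 CPM in the treated libraries (SD, n = 3 per group), and rose by 0.35 on the log2 scale (edgeR BH-adjusted p = 6.34e-07). Its part in the Erap1 counts was not tested.

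The transactivator genes were the lowest of the set. Nlrc5 (ENSMUSG00000074151, chromosome 8), which encodes the activator of class I promoters, had 14, 8 and 20 counts in control and 40, 31 and 30 in treated libraries. The groups did not overlap, and the means were 0.403 ± 0.173 and 1.004 ± 0.153 CPM (SD, n = 3 per group). The log2 fold change was 1.31 ± 0.35, with a 95% interval of 0.57 to 2.04 (edgeR BH-adjusted p = 0.00343). Only 2 of 3 control libraries were over the level the filter asks for in at least 3 libraries, so Nlrc5 entered the test through the treated libraries, which favours a rise.

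Ciita (ENSMUSG00000022504, chromosome 16) had 4, 2 and 0 counts in control and 2, 6 and 3 in treated libraries, below the filter. The groups overlapped. The summed counts, 6 and 11, gave a depth-corrected ratio of treated over control of 1.89 with an exact 95% interval of 0.642 to 6.24, which covers counting error only. No change of Ciita was detectable at this depth. In GENCODE M21, 329 exon bases of Ciita lie opposite Dexi. Dexi was far more abundant, at 7.68 ± 0.756 CPM in control and 8.01 ± 0.858 CPM in the treated libraries (SD, n = 3 per group). Its part in the Ciita counts was not tested. Even numbers made up 74.6% of counts between 1 and 10 over all genes, and the sources used here do not say whether both reads of a fragment were counted. The number of independent fragments behind such low counts may be smaller than the counts.

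Cd74 (ENSMUSG00000024610, chromosome 18) had 35, 50 and 51 counts in control and 178, 200 and 149 in treated libraries. The lowest treated library held nearly 3 times the counts of the highest control. The means were 1.34 ± 0.387 and 5.23 ± 0.549 CPM (SD, n = 3 per group), a 3.95-fold rise, or a log2 fold change of 1.98 ± 0.19 (SE, 95% interval 1.59 to 2.37, edgeR BH-adjusted p = 6.04e-09). Of the 4710 tested genes with a mean under 5 CPM, 11.3% rose by at least 2-fold. Of the members, Cd74, Tap2 and Nlrc5 were among these genes.

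**Figure D2:**
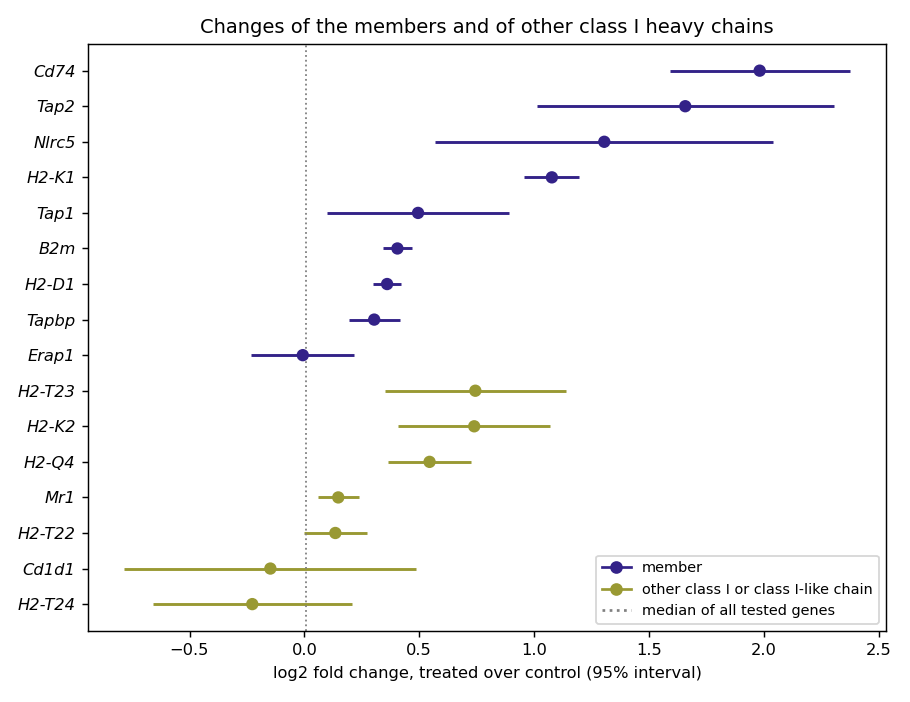
Points are log2 fold changes (treated over control) from the edgeR fit with 95% intervals, for the 9 tested members and the 7 tested other class I or class I-like chains. The dotted line is the median of all tested genes. Cd74, at 1.98, is the highest, and the intervals of Erap1, H2-T22, H2-T24 and Cd1d1 include 0.

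Levels could be compared between genes only per length. In control libraries the order by CPM per kilobase of exon was B2m at 181.6 ± 3.48, H2-D1 at 32.2 ± 0.533, H2-K1 at 11.6 ± 1.37, Tapbp at 7.50 ± 0.215, Erap1 at 1.22 ± 0.107, Cd74 at 0.798 ± 0.231, Tap1 at 0.451 ± 0.132, Tap2 at 0.129 ± 0.0399, Nlrc5 at 0.0475 ± 0.0203 and Ciita at 0.00583 ± 0.00543 (SD, n = 3). The ranges of Cd74 and Tap1 overlapped, so these neighbours did not differ beyond their spread, and the other neighbours were apart. In treated libraries Cd74, at 3.11 ± 0.327, stood above Erap1, at 1.22 ± 0.173, and the order of the other genes was the same. Tap2 moved closer to its partner, from 0.129 against 0.451 for Tap1 in control to 0.406 ± 0.0841 against 0.640 ± 0.0955 in treated libraries.

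**Figure D3:**
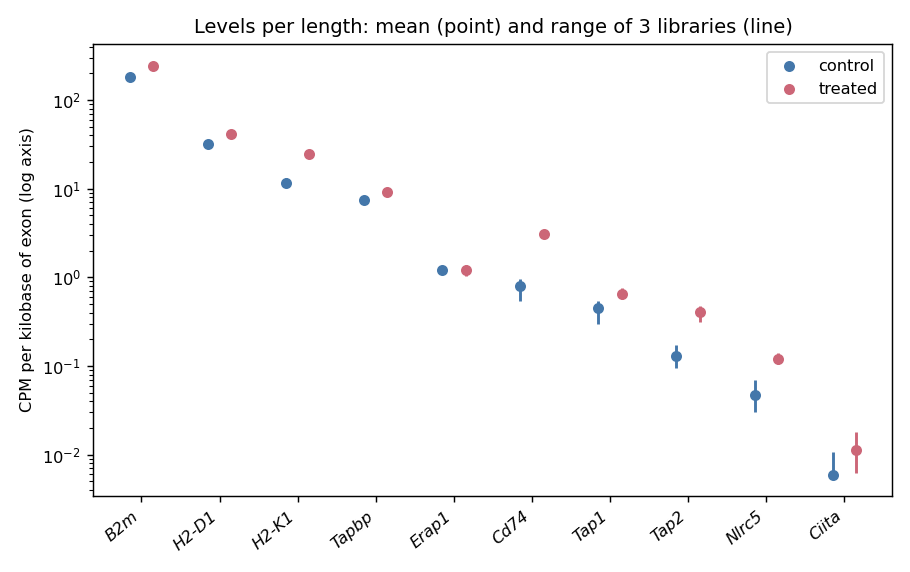
CPM per kilobase of exon on a log axis for the 10 genes in their control order, with the mean as a point and the range of 3 libraries as a line. The line of Ciita in control starts at its mean because 1 library is at 0. B2m is highest at 181.6, and Cd74 passes Erap1 in treated libraries.

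The other class I heavy chains that could be tested rose or did not pass. Of 23 listed genes 11 had counts and 7 were tested, of which 4 rose and none fell, where 25.1% of all tested genes rose and 27.9% fell. The median log2 fold change was 0.15 against 0.01 for all tested genes. H2-Q4, a chain of the Q region, measured 10.01, 11.3 and 10.4 CPM in control and 16.4, 16.2 and 13.6 CPM in the treated libraries (log2 fold change 0.55 ± 0.09, edgeR BH-adjusted p = 1.39e-05). H2-T23, which encodes Qa-1, a ligand of the NKG2A receptor of natural killer cells, rose from 1.72 ± 0.374 to 2.91 ± 0.190 CPM (0.74 ± 0.19 on the log2 scale, edgeR BH-adjusted p = 0.00204). These groups did not overlap.

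H2-K2, annotated as a transcribed pseudogene, rose by 0.74 ± 0.16 (edgeR BH-adjusted p = 4.34e-04), and Mr1, which presents vitamin B metabolites to T cells, rose by 0.15 ± 0.04 (edgeR BH-adjusted p = 0.00553) on the log2 scale. H2-T22, a ligand of gamma delta T cells, had a log2 fold change of 0.13 ± 0.07 (edgeR BH-adjusted p = 0.0908) and passed when libraries were scaled by their totals alone, without TMM factors (0.21, edgeR BH-adjusted p = 0.00913). H2-T24 and Cd1d1, a lipid-presenting molecule, had log2 fold changes of -0.23 ± 0.21 and -0.15 ± 0.31 and did not pass (edgeR BH-adjusted p = 0.383 and 0.713). In transcripts of H2-T22, 8.86% of 100-base stretches also occur in other genes, so its counts are the less certain.

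Apart from the members Tap1, Tap2 and Tapbp, which rose, the listed genes that supply and load class I peptides went mostly the other way. Of 23 genes for proteasome forms, peptidases and loading chaperones, 21 were tested, of which 14 fell, 3 rose and 4 did not pass (5 rose and 12 fell with library totals or with level-dependent offsets). The median log2 fold change was -0.20, and 27.9% of all tested genes fell. Calr, the chaperone calreticulin of the loading complex, fell from 1231 ± 8.06 to 835 ± 7.70 CPM (SD, n = 3 per group; log2 fold change -0.56 ± 0.02, edgeR BH-adjusted p = 1.24e-17). Pdia3, the disulfide isomerase paired with tapasin, fell by 0.31, the proteasome subunit gene Psmb7 by 0.47 and the peptidase genes Thop1 and Lap3 by 0.51 and 0.47 on the log2 scale.

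The general chaperone gene Hspa5 rose by 0.83 ± 0.02 (edgeR BH-adjusted p = 1.07e-19). Of the immunoproteasome subunits, named here for their role after their values were seen, Psmb8 and Psmb9 were nearly silent, with at most 2 and 8 counts in any library. Psmb10 fell by 0.36 ± 0.10 (edgeR BH-adjusted p = 0.00449). The proteasome activator gene Psme2 rose by 0.46 ± 0.08 (edgeR BH-adjusted p = 2.96e-05), while Psme1, which encodes its partner, had a log2 fold change of 0.05 ± 0.05 and did not pass (edgeR BH-adjusted p = 0.454). Of the exon bases of Tap1, 212 lie opposite Psmb9, and the part of Psmb9 in the Tap1 counts was not tested.

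Regulators of class I and class II genes moved in both directions, as did all tested genes, of which 25.1% rose and 27.9% fell. Of 35 listed genes 32 were tested, of which 11 rose, 8 fell and 13 did not pass (16 rose and 7 fell with library totals), with a median log2 fold change of 0.08. Stat2, a mediator of type I interferon signals, rose from 12.6 ± 0.663 to 17.9 ± 1.05 CPM (0.51 ± 0.08 on the log2 scale, edgeR BH-adjusted p = 5.51e-06). Stat3 rose by 0.31, the interferon gamma receptor gene Ifngr2 by 0.32 and Socs3, a feedback inhibitor of cytokine signals, by 0.39 on the log2 scale. Other interferon signalling genes fell. Ifnar1 had a log2 fold change of -0.18 ± 0.03 (edgeR BH-adjusted p = 7.09e-05). That of Irf9 was -0.32 ± 0.11 (edgeR BH-adjusted p = 0.0211), a call lost with library totals. Ezh2, the Polycomb methyltransferase known to hold class I genes silent in some tumours, fell from 237.8 ± 1.82 to 188.8 ± 2.61 CPM (-0.33 ± 0.02 on the log2 scale, edgeR BH-adjusted p = 1.01e-10), as did the deacetylase gene Hdac1 by 0.27 and the CCAAT-binding subunit gene Nfyc by 0.49 on the log2 scale.

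Irf1, a transcription factor of the interferon gamma response, was picked for its role after its values were seen. It had a log2 fold change of 0.16 ± 0.07 (95% interval 0.01 to 0.31, edgeR BH-adjusted p = 0.0735), and it passed with library totals (0.24, edgeR BH-adjusted p = 0.00943). The genes of the RFX complex, Rfx5, Rfxank and Rfxap, had log2 fold changes of -0.13 ± 0.09, 0.03 ± 0.09 and -0.06 ± 0.06 and did not pass (edgeR BH-adjusted p = 0.271, 0.837 and 0.430).

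**Figure D4:**
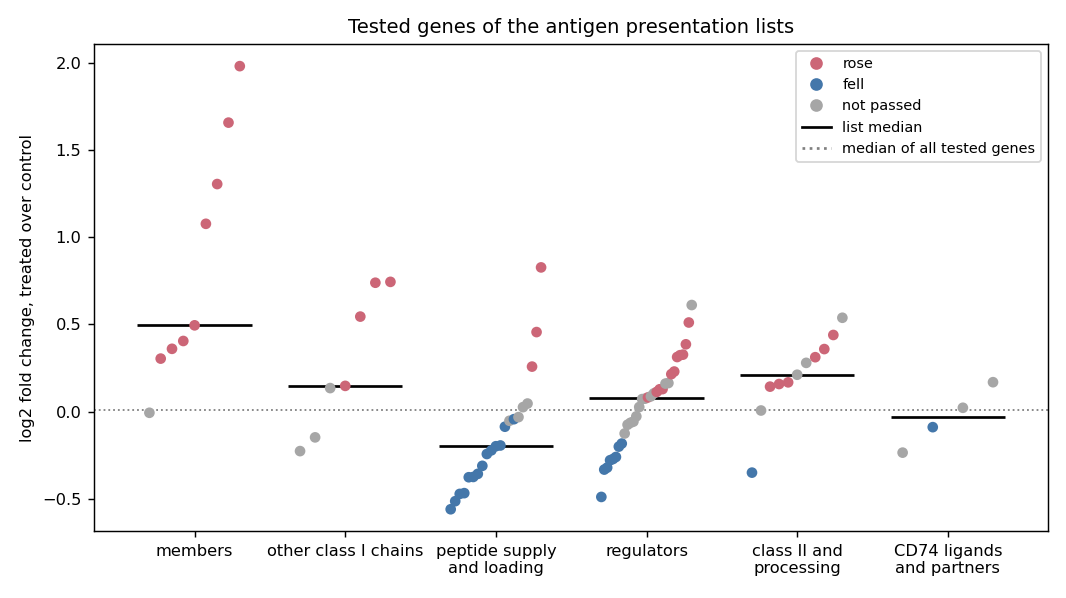
Each point is the log2 fold change (treated over control) of 1 tested gene, grouped by list and coloured by whether it rose, fell or did not pass at an edgeR BH-adjusted p under 0.05. The list medians run from -0.20 for peptide supply and loading to 0.49 for the members, and the dotted line is the median of all tested genes.

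H2-Eb1, the H2-A or H2-E type class II chain analysed beside Cd74, was nearly silent. Of 23 genes for class II chains, class II loading and invariant chain processing, 11 were tested, of which 6 rose, 1 fell and 4 did not pass, with a median log2 fold change of 0.21. Of all tested genes 25.1% rose and 27.9% fell. H2-Aa, H2-Ab1, H2-Ea and H2-Eb2 are not analysed here. H2-Eb1, a class II beta chain, had 2, 0 and 0 counts in control and 5, 0 and 2 in treated libraries, too few to test. The loading chaperone genes H2-DMa and H2-DMb1 measured 0.950 ± 0.0822 and 3.59 ± 0.606 CPM in control and 1.16 ± 0.243 and 4.18 ± 0.335 CPM in the treated libraries and did not pass (edgeR BH-adjusted p = 0.413 and 0.252).

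Of the lysosomal protease genes on that list, Ctsl, Ctsb and Ctsd rose, and Lgmn, which encodes legumain, did not pass (log2 fold change 0.01 ± 0.03, edgeR BH-adjusted p = 0.895). Ctsl, whose product can trim the invariant chain, rose from 161.8 ± 3.80 to 219.4 ± 2.72 CPM (0.44 ± 0.03 on the log2 scale, edgeR BH-adjusted p = 2.42e-12), Ctsb by 0.36, Ctsd by 0.17 and the tetraspanin gene Cd9 by 0.31 on the log2 scale. Ctss, a main invariant chain protease of professional antigen-presenting cells, had 2 counts in 1 control library and 0 in the other libraries. Ifi30, a lysosomal thiol reductase gene that interferon gamma induces, fell by 0.35 ± 0.05 (edgeR BH-adjusted p = 7.10e-06).

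The ligand of surface CD74, MIF, was abundant at the RNA level and its gene did not pass the test. Of 6 listed ligand and partner genes 4 were tested, of which none rose and 1 fell (27.9% of all tested genes fell), with a median log2 fold change of -0.03. Mif measured 638.6 ± 10.2 CPM in control and 648.3 ± 4.75 CPM in the treated libraries (log2 fold change 0.02 ± 0.02, edgeR BH-adjusted p = 0.365), although it passed as a rise with library totals (0.10, edgeR BH-adjusted p = 1.43e-04) and with level-dependent offsets (0.17, edgeR BH-adjusted p = 1.16e-07). Cd44, the signalling partner of CD74, fell by 0.09 ± 0.02 (edgeR BH-adjusted p = 0.00156), a call lost with library totals (-0.01) and lost with the sign turned under level-dependent offsets (0.05).

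CD74 and class I molecules are abundant on immune cells, so markers of such cells were read beside them. Fewer cells of a type and less RNA per cell cannot be told apart in these bulk libraries. Of 19 immune markers 14 had counts and 3 were tested, and their summed level was 4.63 to 5.29 CPM in control and 9.37 to 10.2 CPM in the treated libraries. Most of that sum was Cd68, a lysosomal glycoprotein gene, which rose from 3.25 ± 0.120 to 7.56 ± 0.415 CPM (1.22 ± 0.12 on the log2 scale, edgeR BH-adjusted p = 9.99e-09), and Lyz2 also rose, from 0.971 ± 0.201 to 1.53 ± 0.328 CPM (edgeR BH-adjusted p = 0.0441).

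The defining leukocyte gene Ptprc (CD45) had 0 counts in 5 libraries and 2 in treated replicate 1, and it was 1 of 10 markers of the list with at most 4 counts in any library. Of the others, Laptm5 had 13, 9 and 7 counts in control and 3, 14 and 8 in treated libraries, and Cd79a had 7 to 12 counts in every library and did not pass (edgeR BH-adjusted p = 0.923). The 9 pigment cell markers were abundant in every library, as the labelled cell type would have them, with a sum of 17424 to 18030 CPM in control and 14415 to 15275 CPM in the treated libraries. Of these markers 8 fell and 1 rose, with a median log2 fold change of -0.42. Of all tested genes 27.9% fell and 25.1% rose. The direction of most of these markers was thus opposite to that of most members. The summed fibroblast markers were 7.24 to 10.7 CPM in control and 9.93 to 11.3 CPM in the treated libraries, the endothelial ones 1.31 to 2.12 and 3.23 to 3.98 CPM, and the keratinocyte ones at most 0.0589 CPM. The part of these low levels in the results was not tested.

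The genes with the profile nearest to Cd74, by the root mean square difference of log2 CPM over 6 libraries after centring on the control mean, were Gadd45a, a growth arrest gene, at 0.25, Lgals3, which encodes galectin 3, at 0.27, and Nppb, a natriuretic peptide gene, at 0.32. Lgals3 rose from 98.6 ± 5.32 to 389.4 ± 1.40 CPM, the same log2 fold change of 1.98 as Cd74. A fold change close to that of Cd74 follows from picking genes by this distance and is not a separate result. Nearest to H2-K1 were Aldh1l2, a mitochondrial folate enzyme gene, and Lrrc27, both at 0.05, and Ppp1r15a, a stress response phosphatase subunit gene, at 0.06. Of 9889 genes compared, 102 lay within 0.2 of H2-K1 and none of 9890 within 0.2 of Cd74. The low level of Cd74 (1.34 ± 0.387 CPM in control, SD) adds noise to its distances. These numbers therefore do not compare how widely the profiles were shared.

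Depth was even across libraries, from 31183728 to 40129044 counts. The chi-square per gene was between 2.78 and 3.09 for every pair of libraries of 1 group, where sampling noise alone gives about 1, or about 2 if both reads of each fragment were counted, and no pair stood apart as a repeat. The median gene had a log2 fold change of 0.01, or 0.08 with library totals. Among the changed genes 47.4% were higher in treated libraries, or 62.5% with library totals, and the 8 members that rose kept their direction under both.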

How the data were processed

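RNA of 6 B16F10 libraries was analysed from the deposited table of unnormalised read counts per Ensembl gene. Per the submitters' processing notes, fastp 0.22.0, HISAT2 2.2.0 and featureCounts 2.0.6 were used. The builds hg38 and mm39 are listed with no role, and the sources used here do not give the strand setting, the annotation or the treatment of reads matching several places. Columns were matched by library name, with 0 left over.

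Symbols, biotypes and exon lengths came from GENCODE M21 (GRCm38). It named 26531 of 27067 identifiers. Promoters are RefSeq's for GRCm38.p6. These builds are not mm39, so the coordinates given are those of the RefSeq promoter windows alone, not of the count table.

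Genes passing filterByExpr (minimum count 10, total 15) were fitted with TMM factors by the edgeR 4.0.16 quasi-likelihood F test (R 4.3.3, two-sided, no term but group) and Benjamini-Hochberg adjustment over 15150 genes. A change is an adjusted p under 0.05. The SE is the absolute log2 fold change over the square root of F. The test was checked on simulated counts. Alternatives used DESeq2 1.42.0, limma 3.58.1, cyclic loess (level-dependent) offsets and other filters and samples.

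Members and lists were chosen with earlier results of these data known. Named genes are all members, all tested class I chains, up to 4 called genes per list by smallest p and up to 4 by largest change, and the 3 nearest profiles to Cd74 and H2-K1. Other genes were named for their role after their values were seen. A gene of the regulator list is not reported here by name.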

Additional observations from a re-analysis of the deposited data

How the results depend on the processing

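The 15 alternatives were other scalings (median-of-ratios factors, library totals, level-dependent offsets), other filters, protein-coding genes only, DESeq2, limma-voom, the replicate number as a block, and leaving out each library. H2-K1, H2-D1, B2m, Tapbp, Tap2, Cd74 and Nlrc5 rose in every alternative that gave a value. Nlrc5 had none with the filter at 1 CPM. Tap1 lost its call with level-dependent offsets (log2 fold change 0.31), in DESeq2 (0.50), and without control replicate 2 or treated replicate 1, its log2 fold change running from 0.28 to 0.66 as single libraries were left out. The log2 fold change of Erap1 turned above 0 with library totals (0.0709), the filter at 1 CPM (0.00996) and protein-coding genes only (0.00106), ran from -0.11 to 0.0946 as single libraries were left out, and passed in none. The cause of these changes was not tested.

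With the replicate block 8061 genes changed, against 8032, and no member's call changed. Samples with the same number did not deviate together (correlations of -0.014, -0.0284 and 0.0239), and not every library correlated best with its own number. This cannot show whether the numbers mark pairs, because pairs with little shared effect would look the same. Counts of changed genes, for all genes and for each list, stayed within 1.5 times under all alternatives.

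With the longest transcript as length the order of levels was the same. In control and treated libraries CPM per kilobase became 18.2 and 38.3 for H2-K1, 39.5 and 50.7 for H2-D1, 0.631 and 0.896 for Tap1, 9.38 and 11.6 for Tapbp and 1.58 and 1.57 for Erap1, and in treated libraries 3.71 for Cd74 and 0.0181 for Ciita. Depth limits Ciita, Nlrc5 and Tap2.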
